A study of Homo sapiens with 4 samples.

Results

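The muscarinic acetylcholine receptors are the products of 5 genes, CHRM1 to CHRM5, and the rows with these 5 symbols were taken from count tables of 36601 genes. All 5 rows were present in all 4 samples. The samples were enteric ganglioids, free-floating 3D cultures differentiated through enteric neural crest from H9, an established human embryonic stem cell line, and profiled by single-nucleus RNA sequencing. Control ganglioids (2 samples) received no inhibitor, and PP121 ganglioids (2 samples) received 2 µM PP121, an inhibitor of tyrosine kinases and phosphoinositide 3-kinases, from day 15 to day 20. In both groups differentiation replicate 1 carried the deposited time point day 42 and replicate 2 day 38, so that day and differentiation cannot be told apart. All samples came from 1 cell line, each was a pool of ganglioids by the study's account, and the cultures held no gut wall.

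Acetylcholine is the main excitatory transmitter of the enteric nervous system, and muscarinic receptors are the G protein-coupled receptors through which it acts on neurons, glia, muscle and epithelium of the gut. The M1, M3 and M5 receptors (CHRM1, CHRM3 and CHRM5) couple to Gq proteins, which activate phospholipase C-β and release calcium from stores, whereas the M2 and M4 receptors (CHRM2 and CHRM4) couple to Gi and Go proteins, which lower cyclic AMP and open inwardly rectifying potassium channels. In the gut M3 is best known as the receptor that drives contraction of smooth muscle, M2 as the more abundant muscle receptor and as a presynaptic receptor that limits release of acetylcholine, and M1 as a receptor of enteric neurons.

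The unit throughout is unique molecular identifiers (UMIs), each a captured RNA molecule, summed over the nuclei of a class in a sample and divided by the UMIs of all genes in that sum, given per 1000000 (CPM). After nuclei that the authors had filtered out were dropped, 14812 annotated nuclei with 116292617 UMIs remained, from 2912 to 4587 nuclei a sample, with median depths of 6289 to 7071 UMIs a nucleus. The authors assigned them to enteric neurons (6557 nuclei), Progenitor 1 (2892), Progenitor 2 (3800), mesenchymal (903), epithelial (92) and unknown (568). All 12 neuron markers were highest in the enteric neurons in 4 of 4 samples, as were 10 of 13 mesenchymal markers in the mesenchymal class, but only 4 of 7 progenitor markers were highest in a progenitor class and 1 of 3 epithelial markers in the epithelial class, whose 9 to 37 nuclei a sample are described without weight. Pairs of libraries shared 0 to 8 cell barcodes.

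CHRM2 was the most counted member and CHRM3 the next, with 29483 and 9449 UMIs over all annotated nuclei. CHRM5 had 2291 UMIs. CHRM1 had 16 UMIs in 14 nuclei and CHRM4 had 4 UMIs in 4 nuclei, 0.138 and 0.0344 CPM, where 3 UMIs in the whole data set correspond to 0.0258 CPM. In the enteric neurons CHRM1 was represented by 4 UMIs and CHRM4 by 2. At this depth CHRM1 and CHRM4 were therefore at or near the limit of detection in every class, and neither passed the filter on low counts in any comparison, so that 3 of the 5 members were tested throughout.

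The tested members differ in gene length, which matters in nuclei, where unspliced RNA can be captured, and levels were therefore ranked between genes per length. Ratios of CHRM2 to CHRM3 and comparisons of their CPM given further below are not corrected for length. In the GRCh38 annotation of GENCODE v29 CHRM2 spans 151587 bases of the plus strand (chr7:136868669-137020255), CHRM3 spans 528888 bases (chr1:239386565-239915452, plus) and CHRM5 lies at chr15:33968720-34067457 on the plus strand. CHRM1 (chr11:62908679-62921807) and CHRM4 (chr11:46385098-46386608, 1511 bases) lie on the minus strand. Per kilobase of gene span the median level in enteric neurons was 1.82 CPM for CHRM2, 0.206 CPM for CHRM5 and 0.123 CPM for CHRM3, and per kilobase of exon it was 33.1, 3.50 and 5.33 CPM. CHRM2 thus led on both scales, while the order of CHRM3 and CHRM5 turned with the length used.

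All 3 genes share their ground with antisense neighbours. CHRM2 lies wholly inside the antisense gene AC009264.1 (chr7:136685559-137182107, minus), with 0 shared exon bases. CHRM3 overlaps CHRM3-AS2 over 269 exon bases, and CHRM5 overlaps AVEN, a gene for an inhibitor of apoptosis. The strand setting of the counting is not given in the sources used here, so reads from the stretches that these pairs share may not have been told apart. AC009264.1 had 54779 UMIs, from 1.70 to 2.34 for each UMI of CHRM2 over the 12 sums of neurons and progenitors, and its values are given beside the CHRM2 results.

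The windows around the annotated starts of CHRM2 and CHRM3 are shown because these members moved together between the progenitor classes and apart between neurons of different transmitter identity. They are RefSeq sequences of GRCh38.p14, 300 bases each and mostly upstream of a RefSeq start, written 5′ to 3′ on the plus strand. The CCAAT box, the GC box GGGCGG, the E-box CANNTG and the TATA box TATAAA were searched on both strands, and each match is in capitals. None of the matches shown overlap. Of 3 CHRM2 windows in that table the one that holds the GENCODE start of the gene is shown.

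CHRM2, chr7:136868402-136868701: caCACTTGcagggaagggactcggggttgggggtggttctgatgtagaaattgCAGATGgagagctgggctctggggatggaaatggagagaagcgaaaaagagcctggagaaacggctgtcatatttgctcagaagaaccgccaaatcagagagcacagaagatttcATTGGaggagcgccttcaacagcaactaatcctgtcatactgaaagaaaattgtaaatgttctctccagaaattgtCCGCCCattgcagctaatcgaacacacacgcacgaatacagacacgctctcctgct

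CHRM3, chr1:239386318-239386617: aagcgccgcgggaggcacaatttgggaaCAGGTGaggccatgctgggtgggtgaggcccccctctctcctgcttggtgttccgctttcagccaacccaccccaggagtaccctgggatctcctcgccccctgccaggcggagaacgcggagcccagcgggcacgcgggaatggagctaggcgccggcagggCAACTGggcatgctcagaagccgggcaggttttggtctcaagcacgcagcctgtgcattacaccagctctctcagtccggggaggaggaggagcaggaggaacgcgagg

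The CHRM2 window held 1 CCAAT, 1 GGGCGG and 2 CANNTG matches, with 48.7% G and C and 10 CpG dinucleotides. The CHRM3 window held 2 CANNTG matches, with 66.0% G and C and 18 CpG dinucleotides. Neither held TATAAA. The other CHRM2 windows had 52.3 and 58.7% G and C and 12 and 19 CpG dinucleotides, with 0 CCAAT matches each and 1 and 2 GGGCGG matches, so a contrast with CHRM3 depends on the window. Of all 35116 windows, 34.6% held CCAAT, 45.0% GGGCGG, 68.7% CANNTG and 11.5% TATAAA, and the median window had 58.7% G and C and 14 CpG dinucleotides. These matches describe the letters of the window and were not tested for function.

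CHRM2 was carried at high level by enteric neurons, Progenitor 2 and mesenchymal nuclei, and at a low level by Progenitor 1. In enteric neurons its level was 265 and 221 CPM in the controls (replicate 1, then replicate 2) and 289 and 285 CPM in the PP121 samples (265 ± 31.3 CPM, SD, n = 4). In Progenitor 2 the corresponding levels were 312, 299, 370 and 374 CPM (339 ± 38.7 CPM, SD, n = 4). In Progenitor 1 they were 79.8, 73.5, 88.4 and 98.2 CPM (85.0 ± 10.7 CPM, SD, n = 4). Every Progenitor 1 value lay below every value of these other classes, and in each sample Progenitor 2 lay above the neurons. Mesenchymal nuclei had 317, 211, 313 and 244 CPM (271 ± 52.1 CPM, SD, n = 4), which overlapped the neurons.

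CHRM3 followed another order, with Progenitor 2 and the unknown nuclei above the neurons. Its level in enteric neurons was 61.2 and 51.3 CPM in the controls (replicate 1, then replicate 2) and 68.6 and 80.2 CPM in the PP121 samples. In Progenitor 2 it was 132, 95.5, 141 and 100.1 CPM, and in unknown nuclei 146, 128, 117 and 124 CPM. Both of these classes lay above the neurons without overlap. In Progenitor 1 it was 74.5, 54.4, 77.6 and 50.2 CPM, which overlapped the neurons, and in mesenchymal nuclei 33.6 to 70.0 CPM. CHRM5 had similar levels in all large classes, 14.97 to 22.6 CPM in neurons, 8.87 to 23.6 CPM in Progenitor 1 and 13.1 to 23.5 CPM in Progenitor 2, and these ranges overlapped. The number of CHRM2 UMIs for each CHRM3 UMI, not corrected for length, was 3.55 to 4.34 in enteric neurons, 2.37 to 3.74 in Progenitor 2 and 1.07 to 1.95 in Progenitor 1. The part of free RNA in these values was not tested.

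**Figure D1:**
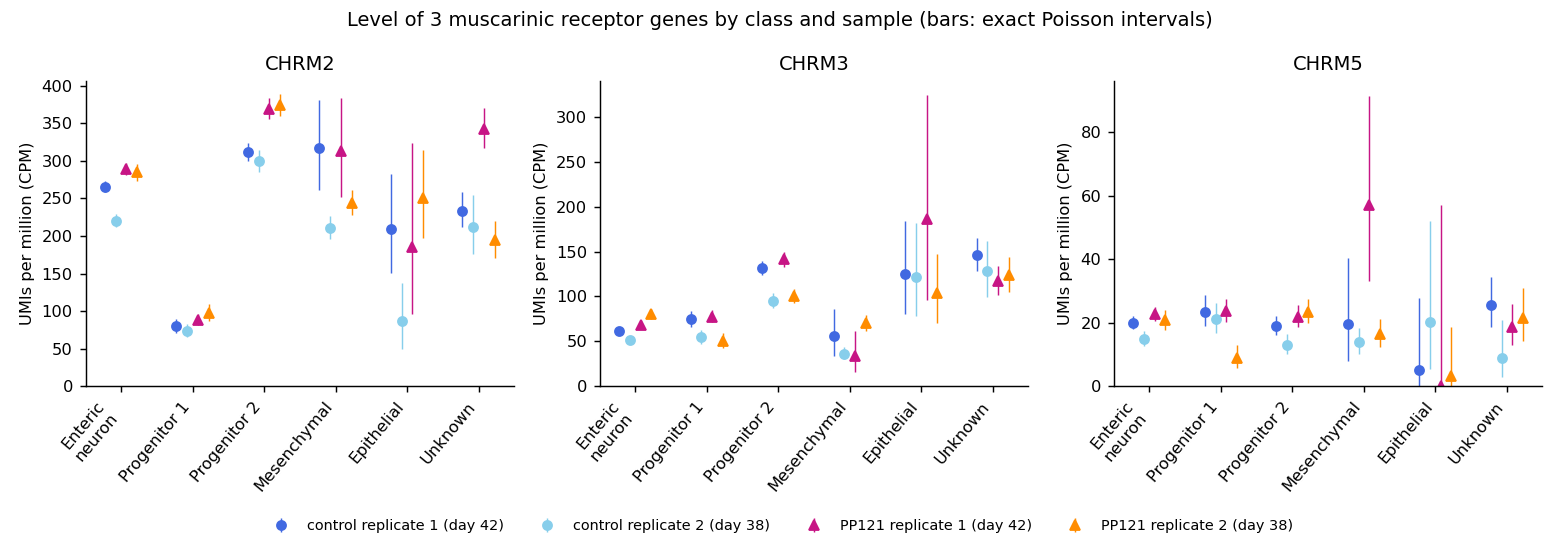
CHRM2, CHRM3 and CHRM5 (panels) in CPM (y axis) for each annotated class (x axis) and sample (points), with exact Poisson intervals of 95% that cover counting error only. CHRM2 in Progenitor 1 sits between 73.5 and 98.2 CPM, below the neurons and Progenitor 2 in all 4 samples, whereas CHRM5 differs little between the large classes.

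The 2 progenitor classes of each sample were compared with the sample as a block (edgeR's quasi-likelihood test with Benjamini-Hochberg adjustment). CHRM2 was lower in Progenitor 1 by a log2 fold change of −1.96 (SE 0.10, adjusted p = 1.11e-08, lower in 4 of 4 samples), and CHRM3 by −0.83 (SE 0.11, adjusted p = 1.33e-05, lower in 4 of 4 samples). CHRM5 differed by 0.03 (SE 0.24, adjusted p = 0.919). The background was large, since 55.3% of 19080 genes tested differed between these classes and 29.1% were lower in Progenitor 1, and the classes had been made by clustering the same counts. AC009264.1 moved with CHRM2, by −1.73 (adjusted p = 2.41e-08 in the same test).

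Other measures moved with this difference. Among genes spanning 500 kb or more the median log2 difference between Progenitor 1 and Progenitor 2 was −1.0, and 77.0% of 369 such genes were lower in Progenitor 1. In the 100 to 200 kb bin, which holds CHRM2, the median was −0.22, and in genes under 10 kb it was 0.14. CHRM3, at −0.83, was thus near the median of genes of its length, while CHRM2, at −1.96, was far below that of its own. Progenitor 1 nuclei were also shallower, with median depths of 4854 to 5954 UMIs against 6242 to 6706, and 27.6 to 39.1% of them were assigned to the G2/M phase against 14.1 to 25.3%. Within Progenitor 1, CHRM2 was 101, 75.3, 95.9 and 144 CPM in G1 nuclei of the 4 samples and 51.6, 51.8, 68.4 and 73.2 CPM in G2/M nuclei. All of these G1 values for CHRM2 lay below the 317 to 412 CPM of Progenitor 2 nuclei in G1, with phases that were called from the same counts. The part of gene length, depth and phase in the class difference was not tested.

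**Figure D2:**
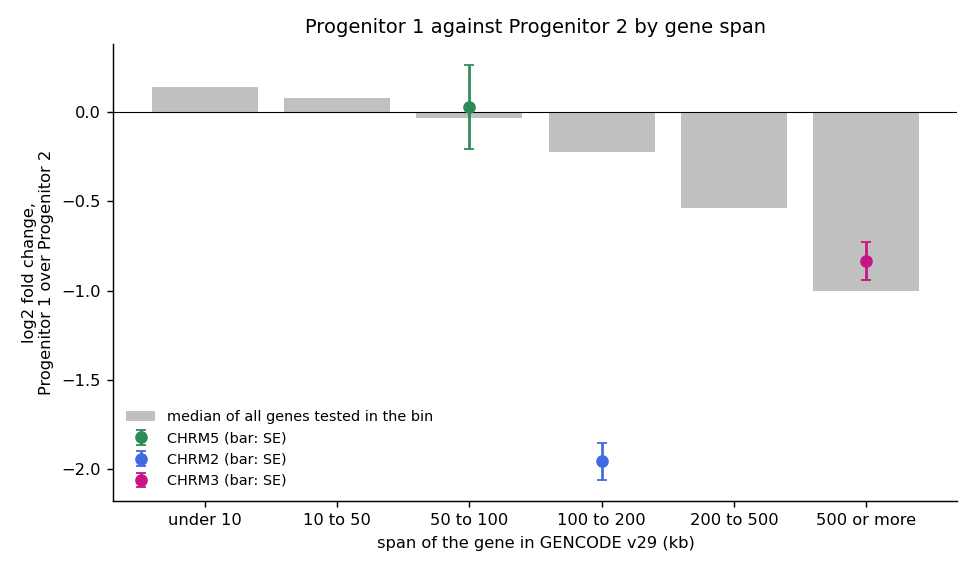
Median log2 difference between Progenitor 1 and Progenitor 2 (y axis) over genes binned by genomic span in kb (x axis), drawn as bars from 0, with CHRM2, CHRM3 and CHRM5 as points with their SE in the bin of their own span. The median falls from 0.14 in genes under 10 kb to −1.0 in genes of 500 kb or more, with CHRM3 near this course and CHRM2 below it.

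Detection per nucleus also placed CHRM2 lowest in Progenitor 1, whereas for CHRM3 the shares placed Progenitor 1 above the neurons, which the CPM did not. With each nucleus thinned to 2000 UMIs, CHRM2 was found in 30.3 and 25.7% of control neurons and 33.3 and 31.4% of PP121 neurons, and in 31.9 to 36.2% of Progenitor 2 nuclei. In Progenitor 1 it was found in 8.79 to 12.4% of nuclei. Without thinning, and pooled over the samples, these shares were 49.6%, 51.5% and 19.1%. CHRM3 was found in 6.90 to 8.50% of thinned neurons, 13.3 to 19.9% of Progenitor 2 and 8.84 to 11.2% of Progenitor 1 nuclei. No class was known beforehand to lack CHRM2 or CHRM3, so a background from free RNA could not be set, and at these depths a nucleus without a UMI may still hold the transcript. A UMI of both genes was found in 1.83 to 2.82% of thinned neurons and in 5.17 to 7.0% of Progenitor 2 nuclei.

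Enteric neurons were next compared with both progenitor classes summed, again with the sample as a block. CHRM3 was lower in neurons by −0.50 on the log2 scale (SE 0.12, adjusted p = 0.0055, edgeR), where 47.8% of 21787 genes differed and 23.1% were lower. CHRM2 was higher by 0.21 (SE 0.08, adjusted p = 0.0461, edgeR), where 24.7% of genes were higher. This call was lost whenever any of the 4 samples was left out, with adjusted p from 0.0592 to 0.176. It was also lost in some alternatives that kept all 4 samples, and passed in 3 of 9. CHRM5 differed by 0.06 (SE 0.10, adjusted p = 0.643). CHRM3-AS2 moved with CHRM3, by −0.51 (adjusted p = 0.00193), and AC009264.1 was higher by 0.12 (adjusted p = 0.22). Genes of 500 kb or more were on the median 0.54 higher in neurons, and the part of gene length was not tested.

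Mesenchymal nuclei gave no member a call against neurons. The log2 differences were 0.01 for CHRM2 (SE 0.15, adjusted p = 0.969), −0.41 for CHRM3 (SE 0.19, adjusted p = 0.133) and 0.13 for CHRM5 (SE 0.28, adjusted p = 0.781), where 31.9% of 20218 genes differed (edgeR). DESeq2 gave an adjusted p of 0.0373 for CHRM3. This class held only 40 nuclei in control replicate 1 and 33 in PP121 replicate 1. The 5 markers of smooth muscle summed to 30.8 to 90.4 CPM in the mesenchymal nuclei, which overlapped Progenitor 2 (32.3 to 52.5 CPM), the unknown nuclei (44.9 to 70.7 CPM) and the neurons (18.6 to 33.7 CPM). The 2 markers of interstitial cells of Cajal summed to 13.5 to 22.4 CPM in the mesenchymal nuclei, 11.7 to 15.9 CPM in the neurons and 31.4 to 58.6 CPM in the unknown nuclei. Markers of enteric glia summed to 17.9 to 26.4 CPM in the neurons, 21.3 to 31.0 CPM in Progenitor 2 and 0 to 47.6 CPM in the mesenchymal nuclei, which overlapped.

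Among neurons the members separated by transmitter identity, with CHRM2 higher in cholinergic neurons and CHRM3 higher in nitrergic neurons. The authors had assigned identities from imputed levels of transmitter genes, none of them a muscarinic receptor as far as their methods say. A call was present for 2285 of 2301 and 1234 of 1250 control neurons, and for 1887 of 2030 and 915 of 976 PP121 neurons. Neurons without a call were in neither group. Of those called, 56.0 to 66.5% carried 2 or more identities, so the groups overlap between comparisons. Each identity was compared with the called neurons of the same sample that lacked it.

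CHRM3 in nitrergic neurons, the inhibitory motor neurons and interneurons that make nitric oxide, was 127 and 106 CPM in the controls (replicate 1, then replicate 2) and 124 and 378 CPM in the PP121 samples. In neurons without this identity it was 45.4, 38.6, 51.8 and 43.6 CPM. Nitrergic neurons were above the others in every sample, by 2.39- to 8.68-fold, without overlap. The log2 fold change was 1.85 (SE 0.23, adjusted p = 1.34e-04, edgeR), where 11.7% of 19027 genes differed and 7.43% were higher. Without PP121 replicate 2 it was 1.42 and still passed. CHRM2 did not pass in this comparison, at −0.11 (SE 0.08, adjusted p = 0.446), nor did CHRM5, at −0.17 (SE 0.14, adjusted p = 0.519). Genes of 500 kb or more were on the median 0.46 higher in nitrergic neurons, and 49.1% of them were called higher. CHRM3-AS2 was higher by 1.41 (adjusted p = 2.59e-05). The part of gene length and of the antisense gene was not tested.

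The thinned shares moved the same way. CHRM3 was found in 15.8, 13.5, 15.9 and 23.3% of nitrergic neurons in the 4 samples in the same order, against 6.62, 5.39, 6.50 and 5.59% of the others. In PP121 replicate 2 the nitrergic share rested on 21 of 90 nuclei, with an exact Clopper-Pearson interval of 15.1 to 33.4%.

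In cholinergic neurons, which include the excitatory motor neurons of the gut, CHRM2 was 333 and 266 CPM in the controls (replicate 1, then replicate 2) and 352 and 451 CPM in the PP121 samples. In neurons without this identity it was 232, 211, 249 and 270 CPM. The cholinergic neurons were higher in each sample, by 1.26- to 1.67-fold, although the lowest cholinergic and the highest other value overlapped across samples. The log2 fold change was 0.59 (SE 0.08, adjusted p = 1.63e-04), where 11.5% of 19542 genes differed and 5.88% were higher (edgeR). AC009264.1 was higher by 0.54 (adjusted p = 2.17e-04). CHRM3 went the other way, with 37.4, 40.1, 40.7 and 39.0 CPM in cholinergic neurons and 73.9, 53.6, 80.4 and 84.4 CPM in the others, a log2 fold change of −0.79 (SE 0.11, adjusted p = 3.49e-04), where 5.65% of genes were lower. These CHRM3 groups did not overlap. Both calls held in all 9 alternative settings. Genes of 500 kb or more were on the median 0.03 higher in cholinergic neurons, with 19.4% of them called lower and 27.2% higher.

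When neurons with both identities were set aside, CHRM3 remained at 137, 100.1, 132 and 398 CPM in nitrergic neurons that were not cholinergic and at 35.0, 31.5, 36.0 and 28.8 CPM in cholinergic neurons that were not nitrergic. The corresponding CHRM2 levels were 228, 207, 232 and 276 CPM and 332, 269, 354 and 475 CPM. The receptors thus had opposite orders between these exclusive groups in all 4 samples. This split was not tested separately.

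**Figure D3:**
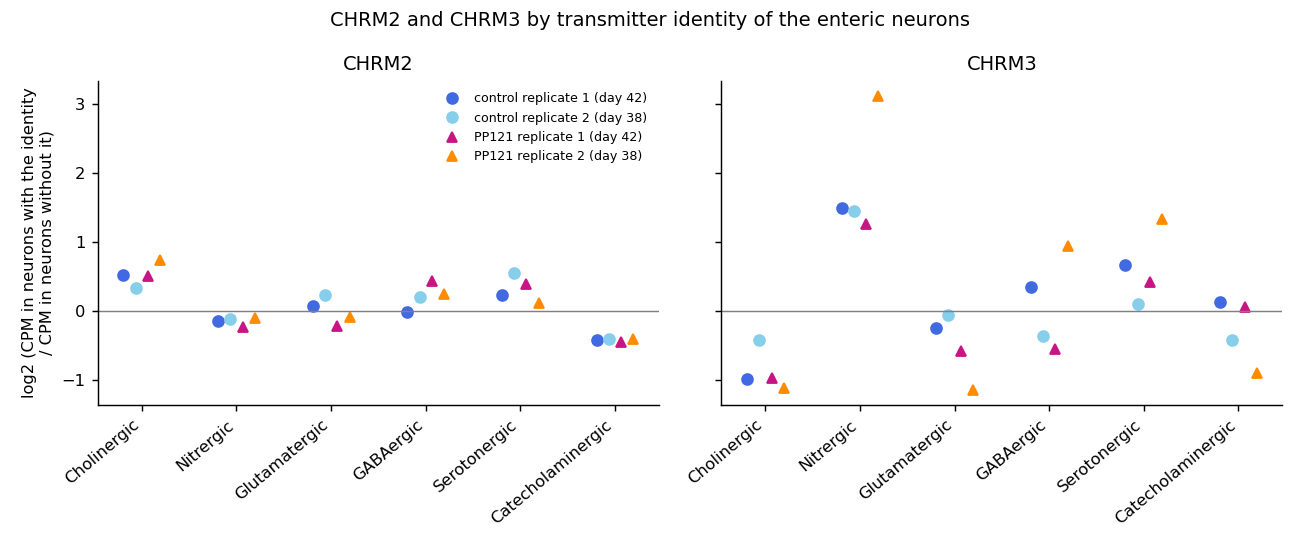
Log2 ratio of the CPM in neurons with a transmitter identity (x axis) to that in neurons without it (y axis) for CHRM2 and CHRM3 (panels) in each of the 4 samples (points). The line marks equal levels. CHRM3 is 2.39- to 8.68-fold higher in nitrergic neurons, and CHRM2 is 1.26- to 1.67-fold higher in cholinergic neurons.

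In the other identities 4 further differences passed, of which 1 passed in all alternatives. In catecholaminergic neurons CHRM2 was lower by −0.43 (SE 0.07, adjusted p = 0.00316), a call that held in all 9 alternatives, where 4.8% of 18260 genes differed and 2.83% were lower, and AC009264.1 was lower by −0.36 (adjusted p = 0.0113). CHRM3 was lower in glutamatergic neurons by −0.53 (SE 0.13, adjusted p = 0.0169; 14.9% of 18972 genes called, 7.45% lower) and higher in serotonergic neurons by 0.63 (SE 0.15, adjusted p = 0.026; 10.7% of 19341 genes called, 5.5% higher). CHRM2 was higher in GABAergic neurons by 0.29 (SE 0.08, adjusted p = 0.0417; 7.85% of 19974 genes called, 4.53% higher). With 1 sample left out these last 3 differences kept their sign, at −0.67 to −0.34, 0.42 to 0.79 and 0.21 to 0.38, and their adjusted p in edgeR rose to as much as 0.0759, 0.141 and 0.256. The glutamatergic call was lost without PP121 replicate 1, and the serotonergic call without control replicate 1 or PP121 replicate 1. The GABAergic call was lost without control replicate 2 or either PP121 sample. It was also lost in some alternatives that kept all 4 samples, and passed in 3 of 9. Of genes of 500 kb or more, 42.6% were called lower in glutamatergic neurons (median −0.20) and 17.3% higher in serotonergic neurons (median 0.15). Of genes of 100 to 200 kb, the bin of CHRM2, 7.83% were called higher in GABAergic and 4.77% lower in catecholaminergic neurons. The part of gene length in these calls was not tested. CHRM5 passed in none of the 6 identities.

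CHRM3 was unevenly spread over neurons. The 10 neurons with the most CHRM3 UMIs held 10.9 and 19.3% of all neuronal CHRM3 UMIs in the controls (replicate 1, then replicate 2) and 21.3 and 40.03% in the PP121 samples. For CHRM2 the 10 leading neurons held 4.45 to 8.10%. For CHRM5, with fewer UMIs, they held 12.2 and 22.3% in the controls, above CHRM3, and 14.2 and 22.5% in the PP121 samples. These shares also depend on the number of UMIs and neurons in a sample, and that part was not tested. Neurons with 10 or more CHRM3 UMIs numbered 14, 7, 16 and 12 in the 4 samples, and 8, 5, 8 and 8 of them were nitrergic while 0, 1, 2 and 0 were cholinergic. The highest single nuclei had 15, 21, 75 and 59 CHRM3 UMIs. With the 10 leading neurons of each sample set aside, as a description, CHRM3 in all neurons became 54.8, 41.8, 54.3 and 48.9 CPM, and the ratio of nitrergic to other neurons became 2.60, 2.04, 2.32 and 3.13. Nitrergic neurons thus remained higher in each sample without them, and the 8.68-fold ratio of PP121 replicate 2 did not.

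The deposited neuronal subtypes, which the authors named separately in control (EN 1 to EN 8) and PP121 (EN A to EN I) cultures, differed in both receptors. Of the subtypes with at least 20 nuclei, CHRM3 was highest in control cultures in EN 8 (144 and 120 CPM in replicates 1 and 2) and EN 5 (143 and 94.4 CPM), and CHRM2 was lowest in EN 1 (172 and 132 CPM) and EN 8 (136 and 173 CPM). In PP121 cultures CHRM3 was 110 and 478 CPM in EN E, and 127 and 74.7 CPM in EN H. The 478 CPM came from 29 nuclei, of which 1 held 59 of the 133 CHRM3 UMIs, and 1 nucleus held 75 of the 291 CHRM3 UMIs of EN H in PP121 replicate 1. CHRM2 was lowest in EN H, at 173 and 202 CPM, and reached 414 and 416 CPM in EN I. CHRM2 in EN C was 363 and 482 CPM. In CPM not corrected for length, EN 8 was the only one of these subtypes of control replicate 1 in which CHRM3 exceeded CHRM2. In PP121 replicate 2 CHRM3 also exceeded CHRM2 in EN E, with 331 CPM of CHRM2. Among nitrergic subtypes of control replicate 1, CHRM3 ranged from 50.1 CPM in Nitrergic 4 to 205 CPM in Nitrergic 2, and CHRM2 from 139 CPM in Nitrergic 3 to 373 CPM in Nitrergic 4. Other subtypes were low or high in both receptors, with 43.5 and 23.4 CPM of CHRM3 in EN 1 and 75.9 and 91.9 CPM in EN I. Subtypes were clusters of the same counts, and they were described without a test.

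**Figure D4:**
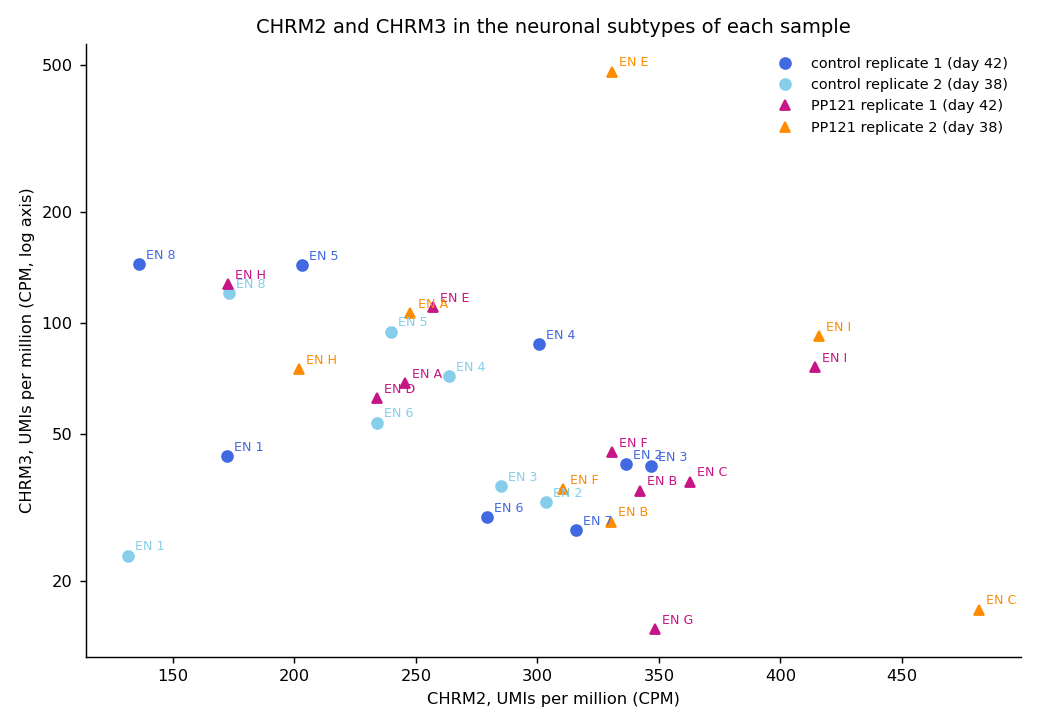
CHRM2 (x axis) against CHRM3 (y axis, log scale), both in CPM, with a labelled point for each of the EN subtypes with at least 20 nuclei in each sample. EN 8 in both controls combines low CHRM2 with high CHRM3, as does EN H in PP121 replicate 1, where 1 nucleus held 75 of 291 CHRM3 UMIs, and EN C and EN G show the reverse, while EN 1 is low in both and EN I is high in CHRM2 with CHRM3 of 75.9 and 91.9 CPM.

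The effect of PP121 was compared in enteric neurons over the 2 control and 2 PP121 samples. CHRM2 was 265 and 221 CPM in the controls and 289 and 285 CPM after PP121, CHRM3 was 61.2 and 51.3 against 68.6 and 80.2 CPM, and CHRM5 was 19.9 and 14.97 against 22.6 and 20.8 CPM. All 3 members were higher in the PP121 samples without overlap. With 2 samples a group such an order also arises where nothing differs, and its share over all genes was not computed. The log2 fold changes were 0.28 for CHRM2 (SE 0.14, adjusted p = 0.454), 0.44 for CHRM3 (SE 0.15, adjusted p = 0.378) and 0.35 for CHRM5 (SE 0.18, adjusted p = 0.471), and none passed edgeR's quasi-likelihood test, in which 0 of 21243 genes (0%) passed, 2549 had an unadjusted p under 0.05 and DESeq2 called 87. With the replicate number as a block, which is also the day, CHRM2 passed at 0.28 (adjusted p = 0.0347) and CHRM3 at 0.43 (adjusted p = 0.0111), and CHRM5 did not at 0.35 (adjusted p = 0.111). In that fit 14.8% of all genes passed and 7.97% were higher.

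These differences were uneven between days, and for CHRM3 and CHRM5 the groups overlapped without a few leading nuclei. CHRM2 was 1.09-fold higher at day 42 and 1.29-fold at day 38, and CHRM3 was 1.12-fold and 1.56-fold higher. With the 10 leading neurons of each sample set aside, the CHRM3 levels of 54.8 and 41.8 CPM in control and 54.3 and 48.9 CPM in PP121 neurons overlapped. Without its own leading neurons CHRM5 also overlapped, at 17.6 and 11.8 against 19.6 and 16.3 CPM. CHRM2 did not, at 256 and 205 against 278 and 266 CPM. The same 10 were taken from 976 neurons in PP121 replicate 2 and 2301 in control replicate 1, so samples lost unequal shares. Genes of 500 kb or more were on the median 0.25 higher in PP121 neurons, and AC009264.1 was higher by 0.16 in the blocked fit (adjusted p = 0.226). AVEN, which overlaps CHRM5, was higher by 0.67 there (adjusted p = 0.00412). Thinned shares of neurons with CHRM2 were higher after PP121 by 4.29 percentage points, an exact permutation p of 0.333 (two-sided), which is the smallest that 2 against 2 samples allow, and adjusted p over the 5 members was 1. For CHRM3 the difference was 0.439 points (exact permutation p = 0.667).

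**Figure D5:**
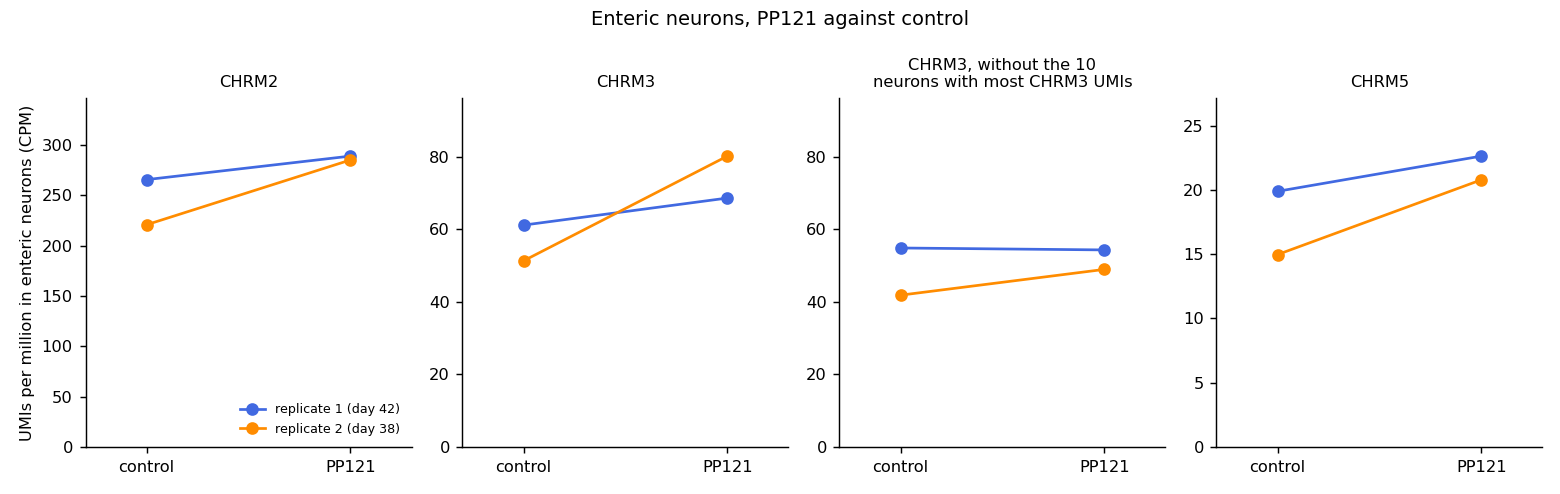
CHRM2, CHRM3, CHRM3 without the 10 neurons with the most UMIs of it, and CHRM5 (panels) in CPM in enteric neurons (y axis) for control and PP121 samples (x axis), with lines joining the samples of 1 replicate number and day. Both PP121 samples lie above both controls for CHRM2, CHRM3 and CHRM5, but at day 42 CHRM3 is 54.8 and 54.3 CPM once the 10 leading neurons are set aside. No member passed in the main fit, without the replicate block.

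In the progenitors no member passed with PP121. The log2 fold changes were 0.24 for CHRM2, 0.02 for CHRM3 and 0.16 for CHRM5 (SE 0.22, 0.22 and 0.22, all adjusted p = 1), where 0 of 20260 genes (0%) passed in edgeR, 962 had an unadjusted p under 0.05 and DESeq2 called 40. The block changed no member's call there, with 1.72% of genes called. The summed classes held 586 Progenitor 1 and 1155 Progenitor 2 nuclei in control replicate 1, and 1197 and 1107 in PP121 replicate 1. Within Progenitor 1 CHRM2 was 1.11-fold higher with PP121 at day 42 and 1.34-fold at day 38. Within Progenitor 2 it was 1.19-fold and 1.25-fold higher, whereas the sums gave 0.988-fold and 1.41-fold. CHRM3 and CHRM5 in Progenitor 1 at day 38 were 0.923-fold and 0.421-fold. The classes were not tested singly. The difference of the PP121 effect between neurons and progenitors was tested as an interaction and was 0.42 for CHRM3 (SE 0.27, adjusted p = 1, and 0.739 with the block), with 0 of 21787 genes called and 709 at an unadjusted p under 0.05. By deposited day, CHRM2 in neurons of replicate 1 (day 42) was 265 and 289 CPM and in those of replicate 2 (day 38) 221 and 285 CPM, which overlapped, and no member passed between the days in neurons or progenitors, where 0% of genes passed in edgeR, 1574 and 2248 had an unadjusted p under 0.05, and DESeq2 called 59 and 109.

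The genes that supply acetylcholine and act below its receptors were taken from 5 lists. Between neurons and progenitors, 4 of 7 tested genes of acetylcholine supply and clearance were higher in neurons and 2 lower (median log2 difference 0.46, against −0.0015 over all genes), led by CHAT, which makes acetylcholine (3.59, adjusted p = 1.17e-06), and SLC5A7, which takes up choline (3.51, adjusted p = 1.18e-05). Of 10 genes of the Gq arm 6 were higher and 2 lower, with PRKCB, a protein kinase C, at 2.83 (adjusted p = 2.23e-08). Of 7 genes of the Gi arm 4 were higher and 1 lower, with GNAO1, the Go α-subunit, at 1.10 (adjusted p = 3.26e-06) and KCNJ3, a subunit of the potassium channel that Gi opens, at 2.40 (adjusted p = 1.01e-04). All 3 tested genes of the M-current, the potassium current that muscarinic receptors close, were higher, with KCNQ3 at 1.76 (adjusted p = 6.22e-07), as were 6 of 8 regulators, with the arrestin gene ARRB1 at 2.56 (adjusted p = 1.49e-07). These calls come from edgeR, in a comparison where 47.8% of all genes passed. ACHE, the enzyme that breaks acetylcholine down, differed by 0.23 (adjusted p = 0.31).

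In nitrergic neurons, where CHRM3 was high and 11.7% of all genes were called and 7.43% higher, 3 of 10 Gq arm genes were higher and 1 lower, with PRKCB at 0.89 (adjusted p = 1.32e-04) and ITPR2, a calcium release channel, at −1.32 (adjusted p = 0.0121). Of the supply list SLC5A7 was higher by 2.56 (adjusted p = 4.21e-04) and CHAT lower by −1.38 (adjusted p = 6.50e-04). In the Gi arm 2 of 7 were higher, with KCNJ3 at 1.38 (adjusted p = 0.00224), and of 9 regulators 3 were higher and 1 lower, with ARRB1 at 1.00 (adjusted p = 1.34e-04).

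In cholinergic neurons, where CHRM2 was high and 11.5% of all genes were called and 5.88% higher, 4 of 10 Gq arm genes were higher and 0 lower, with PLCB4, a phospholipase C-β, at 0.55 (adjusted p = 3.54e-04). Of 7 genes of the Gi arm 1 was higher, KCNJ6 at 0.62 (adjusted p = 0.0397), and the lists were not tested against each other. RGS7, which ends Gi and Go signals, was higher by 0.51 (adjusted p = 0.00127). CHAT and SLC18A3, the vesicular transporter, were higher there by 4.59 and 3.49, which is no finding, since the identity is made from such genes. SLC5A7 and ACHE were not called there. The median level of SLC5A7 was 8.18 CPM in cholinergic neurons and 9.23 CPM in the others, and that of ACHE 7.66 and 10.6 CPM. Between the progenitors, where 55.3% of all genes were called and 29.1% were lower, 1 of 5 Gi arm genes was higher in Progenitor 1 and 2 lower, KCNJ6 by −2.41 (adjusted p = 3.28e-08) beside CHRM2, and ACHE was higher by 1.79 (adjusted p = 4.29e-06) while 3 others of the 4 tested supply genes were lower. In PP121 neurons none of these genes passed, and with the block CHAT was lower by −0.63 (adjusted p = 0.037) and KCNJ6 by −0.35 (adjusted p = 0.0464, edgeR), as were ITPR3 by −1.03 (adjusted p = 0.00682) and RGS2, a regulator, by −0.46 (adjusted p = 0.0296), while ITPR2 was higher by 0.75 (adjusted p = 0.0145). These were 1 of 7 supply, 2 of 10 Gq arm, 1 of 7 Gi arm and 1 of 8 regulator genes, beside 14.8% of all genes called in that fit.

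The genes whose levels were most like those of each member were ranked over 18 class-by-sample sums and 20675 genes, as a description in which sums share libraries and classes. For CHRM2 they were AC009264.1 (Pearson's r = 0.989), AC069277.1 (0.970) and AC104041.1 (0.965). In neurons AC009264.1 was found in 93.3 to 96.2% of nuclei with a CHRM2 UMI and in 23.1 to 30.5% of those without. For CHRM3 they were SYNE2 (0.914), which encodes a nuclear envelope protein, KIAA1257 (0.909) and VEPH1 (0.906), and CHRM3-AS2 stood at rank 54 with 0.846. For CHRM5, whose levels varied little, the highest were MYCBP (0.825), AC018521.5 (0.821) and AC007666.1 (0.820).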

How the data were processed

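Nuclei of 4 ganglioid cultures were profiled with a 10x Genomics 3′ kit. The authors deposited whole-number counts of UMIs per gene and nucleus for each sample and a table with the class, transmitter identities, subtype, cell cycle phase and time point of each nucleus. That table also holds, as the authors deposited it, the percent of each nucleus's UMIs in mitochondrial and ribosomal genes, computed in Seurat. The submitters' processing notes name Cell Ranger, Seurat 4.0.4 and the build GRCh38, and the study's methods name kallisto and bustools for counting. Whether introns or strand were counted, and the annotation release, are not given in the sources used here. Per the study's methods, low-quality nuclei were removed by limits on genes, UMIs and mitochondrial share, no doublet caller is named, and identities were called on imputed values. No doublets were called here. A deposited column of sample names disagreed with the labels for the control samples, and the labels were used.

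Counts were read for all 36601 genes, and nuclei annotated as Filtered were dropped. UMIs were summed per sample and class, identity or subtype. Comparisons used edgeR 4.0.16 (TMM, filterByExpr, quasi-likelihood test, two-sided, Benjamini-Hochberg over all genes tested, threshold 0.05) in R 4.3.3, and classes or identities of the same samples were compared with the sample as a block. Identities and classes rest on the same counts. Alternatives were DESeq2 1.42.0, RLE size factors, no filter, at least 10 counts in every sum, leaving out each sample, the replicate block, leaving out the deepest nuclei (above the percentile of 95), and 976 neurons a sample. Shares used nuclei thinned to 2000 UMIs with exact Clopper-Pearson intervals of 95%, and CPM had exact Poisson intervals. Both cover counting error only. Statistical scripts were tested on simulated data.

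Replicate numbers in the labels mark a shared deposited day. Same-numbered samples deviated together from their group means (correlation 0.48 over 18724 genes in neurons and 0.32 over 18206 in progenitors). The main PP121 fits left this pairing out, and the replicate block, run as an alternative, took these samples as pairs. With 2 samples a group, p-values measure the spread between these differentiations.

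The members, lists and tests were chosen with earlier results of these data known. Beside the 5 members, CHAT, SLC18A3, SLC5A7 and ACHE were named, as were, per comparison and list, up to 3 genes with the smallest p among those passing, and the 3 genes most like each member with at least 100 UMIs. Genes overlapping a member, neuronal subtypes and the leading nuclei were described after their values were seen. Loci came from GENCODE v29 by symbol, promoter windows from RefSeq (GRCh38.p14).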

Additional observations from a re-analysis of the deposited data

Results flagged for a closer look

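The ratio of CHRM2 in glutamatergic neurons to neurons without that identity had opposite signs in the treatment groups, with log2 values of 0.0724 and 0.24 in control replicates 1 and 2 and of −0.22 and −0.10 in PP121 replicates 1 and 2. The difference between the groups was not tested.

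The PP121 over control difference in CHRM3 had opposite signs between classes at both days. It was 0.17 at day 42 and 0.64 at day 38 in enteric neurons and 0.10 and 0.0676 in Progenitor 2, against −0.32 and −0.0482 in the unknown nuclei, all on the log2 scale. These differences between classes were not tested.

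The ratio of CHRM5 in catecholaminergic neurons to neurons without that identity had log2 values of −0.13 and −0.89 in control replicates 1 and 2 and of 0.20 and 0.17 in PP121 replicates 1 and 2. This difference was not tested either. With 2 samples a group, opposite signs also arise where nothing differs.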

How the results depend on the processing

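Of the members' calls, CHRM2 and CHRM3 between the progenitor classes and in cholinergic neurons, CHRM3 in nitrergic neurons and between neurons and progenitors, and CHRM2 in catecholaminergic neurons passed in all alternatives run for them. The calls of CHRM2 between neurons and progenitors, of CHRM2 in GABAergic and of CHRM3 in glutamatergic and serotonergic neurons were lost when 1 sample was left out. Both of these CHRM2 calls were also lost in some alternatives that kept all samples, and each passed in 3 of 9. CHRM2 in serotonergic neurons (adjusted p = 0.0519 in edgeR) passed in 4 of 9 alternatives, with adjusted p from 0.0218 to 0.184. CHRM1 and CHRM4 did not pass the filter on low counts, and 2 samples a group limit every PP121 comparison.

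The replicate block raised the number of genes called for PP121 from 0 to 3152 in neurons and from 0 to 349 in progenitors, and with PP121 as a term the day comparison gave 2015 genes in neurons and 606 in progenitors. The block changed no other call of a member. DESeq2 called 87 and 40 genes for PP121 in neurons and progenitors, 59 and 109 between the days, 1499 for cholinergic, 1368 for glutamatergic, 1197 for serotonergic and 513 for catecholaminergic neurons. Without a filter on low counts the numbers were 69 and 270 for PP121, 158 and 40 between the days, 2395 for GABAergic, 3213 for serotonergic and 1669 for catecholaminergic neurons. With at least 10 counts in every sum 2482 genes were called between mesenchymal nuclei and neurons, where fewer genes were tested. Other causes were not tested.

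Leaving out each sample in turn gave 0 to 1402 genes for PP121 in neurons (1402 without PP121 replicate 1), 0 to 168 in progenitors, 2 to 271 and 2 to 1031 between the days, 3512 to 6189 for mesenchymal nuclei, 1062 to 2413 for cholinergic, 1243 to 2256 for nitrergic, 1196 to 2464 for glutamatergic, 733 to 1595 for GABAergic, 140 to 2586 for serotonergic and 226 to 1165 for catecholaminergic neurons.

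Signs changed only for values that had not passed. For mesenchymal nuclei CHRM2 became −0.0092 with DESeq2, −0.0057 with RLE size factors, −0.0531 without a filter and −0.12 with at least 10 counts, and CHRM5 between the progenitor classes became −0.0477 with at least 10 counts. CHRM5 in GABAergic neurons became 0.01995 with DESeq2. The PP121 difference in the share of neurons with CHRM3 was −0.529 points with thinning to 4000 UMIs and −0.227 without thinning. With 1 sample left out, values ranged as follows on the log2 scale. CHRM3 for PP121 in progenitors ranged from −0.17 to 0.26. Between the days in neurons CHRM2 ranged from −0.13 to 0.29, CHRM3 from −0.39 to 0.30 and CHRM5 from −0.0538 to 0.46, and CHRM2 in progenitors from −0.37 to 0.10. CHRM5 between the progenitor classes ranged from −0.19 to 0.37. For mesenchymal nuclei CHRM2 ranged from −0.0780 to 0.12 and CHRM5 from −0.19 to 0.40. The CHRM2 interaction ranged from −0.11 to 0.22. CHRM5 in cholinergic neurons ranged from −0.0121 to 0.0953, CHRM2 in glutamatergic from −0.0987 to 0.0477, CHRM3 in GABAergic from −0.0785 to 0.40, CHRM5 in GABAergic from −0.11 to 0.19 and CHRM5 in catecholaminergic neurons from −0.24 to 0.0672. The share difference of CHRM3 ranged from −0.325 to 1.20 points.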
